A study of Mus musculus with 9 samples.

Results

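De novo lipogenesis and triglyceride synthesis were followed through 31 genes, taken by symbol from 29386 gene identifiers in the deposited RNA-seq tables of mouse brown fat and cultured brown adipocytes. They comprise 4 genes of transcriptional control, 9 of fatty acid synthesis, 5 of desaturation and 13 of glycerolipid and triglyceride synthesis. All 31 of 31 were present in every table and passed the filter on low values in every comparison. The study removed or lowered Setdb1, which encodes a histone methyltransferase that places a silencing mark on chromatin, in 3 separate experiments. In brown adipose tissue (BAT), 2 Setdb1 AKO libraries (Setdb1 fl/fl; Adipoq-Cre+) were set against 2 control libraries (Setdb1 fl/fl; Adipoq-Cre-). Adipoq-Cre is a recombinase driven by the adiponectin promoter, which is active in mature adipocytes of every depot, so other cells of the tissue keep the floxed gene. Both groups carry floxed Setdb1, and Cre-bearing mice with an unfloxed gene were not analysed here. In primary brown adipocytes with Setdb1 flox/flox and Rosa26Cre-ERT2, a Cre released by tamoxifen, 1 library of cells given 1 µM 4-hydroxytamoxifen (4-OHT) was set against 1 library given its ethanol vehicle (ETOH). The agent and the deletion it induces cannot be told apart there. In primary brown adipocytes transfected with siRNA, 2 siSetdb1 libraries were set against 1 control siRNA (siNC) library. The labels give no age, sex or housing of the mice, do not explain the prefix TN_CE of the BAT titles, and do not say whether libraries come from separate animals or cultures, so the p-values below speak only of the spread among the libraries, which may be technical.

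Lipogenesis turns cytosolic acetyl-CoA into palmitate, which is desaturated, elongated and esterified to glycerol as triglyceride. SREBP-family factors (Srebf1), escorted by Scap, and the carbohydrate-sensing factor ChREBP (Mlxipl) with its partner Mlx switch on most of the enzymes. Brown fat runs this pathway beside fatty acid oxidation and is known to raise both together in the cold.

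Promoters are shown for 6 members. Srebf1 and Mlxipl were taken as the factors. Thrsp, Agpat2, Acss2 and Mid1ip1 are among the 10 members with both Setdb1 AKO libraries above both controls in BAT. Of those 10, Me1, Pcx, Fads2 and Lpin2 also have windows, which are not printed. Each window is RefSeq sequence of GRCm38.p6, from 250 bases before to 50 bases from the annotated start on, 5′ to 3′ along the gene. Capitals mark matches on either strand to the E-box CACGTG, the CCAAT box CCAAT, the GC box GGGCGG or the sterol regulatory element TCACNCCAC, and no 2 different motifs overlapped in these windows.
Srebf1, chr11:60222532-60222831, minus strand: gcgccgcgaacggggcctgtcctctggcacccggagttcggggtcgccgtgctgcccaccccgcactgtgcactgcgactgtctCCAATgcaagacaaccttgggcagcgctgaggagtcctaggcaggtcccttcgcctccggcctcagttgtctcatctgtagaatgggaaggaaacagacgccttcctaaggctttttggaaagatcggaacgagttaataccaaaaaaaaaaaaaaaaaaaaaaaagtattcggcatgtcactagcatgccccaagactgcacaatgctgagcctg
Mlxipl upstream start, chr5:135089640-135089939, plus strand: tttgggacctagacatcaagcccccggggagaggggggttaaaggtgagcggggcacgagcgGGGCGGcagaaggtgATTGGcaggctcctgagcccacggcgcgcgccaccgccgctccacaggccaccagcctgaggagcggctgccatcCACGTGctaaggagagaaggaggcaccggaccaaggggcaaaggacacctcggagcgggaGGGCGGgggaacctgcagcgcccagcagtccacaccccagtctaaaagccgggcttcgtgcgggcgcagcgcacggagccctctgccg
Mlxipl downstream start, chr5:135106641-135106940, plus strand: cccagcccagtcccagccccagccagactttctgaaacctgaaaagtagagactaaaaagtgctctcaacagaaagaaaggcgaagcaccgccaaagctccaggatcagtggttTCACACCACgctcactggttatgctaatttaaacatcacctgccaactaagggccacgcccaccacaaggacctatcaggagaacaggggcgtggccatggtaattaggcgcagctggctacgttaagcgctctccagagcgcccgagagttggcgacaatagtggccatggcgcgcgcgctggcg
Thrsp, chr7:97417501-97417800, minus strand: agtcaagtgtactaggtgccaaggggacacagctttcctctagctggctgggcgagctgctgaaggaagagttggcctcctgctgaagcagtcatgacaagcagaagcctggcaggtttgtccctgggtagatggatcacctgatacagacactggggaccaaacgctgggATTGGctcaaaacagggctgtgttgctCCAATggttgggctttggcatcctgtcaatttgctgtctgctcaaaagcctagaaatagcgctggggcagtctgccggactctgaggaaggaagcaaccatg
Agpat2, chr2:26604368-26604667, minus strand: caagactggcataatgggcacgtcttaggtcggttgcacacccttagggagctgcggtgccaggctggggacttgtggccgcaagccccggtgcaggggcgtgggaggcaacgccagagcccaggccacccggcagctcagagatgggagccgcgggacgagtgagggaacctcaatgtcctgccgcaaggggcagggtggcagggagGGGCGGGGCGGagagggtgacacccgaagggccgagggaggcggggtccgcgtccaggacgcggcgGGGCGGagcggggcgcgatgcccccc
Acss2, chr2:155517793-155518092, plus strand: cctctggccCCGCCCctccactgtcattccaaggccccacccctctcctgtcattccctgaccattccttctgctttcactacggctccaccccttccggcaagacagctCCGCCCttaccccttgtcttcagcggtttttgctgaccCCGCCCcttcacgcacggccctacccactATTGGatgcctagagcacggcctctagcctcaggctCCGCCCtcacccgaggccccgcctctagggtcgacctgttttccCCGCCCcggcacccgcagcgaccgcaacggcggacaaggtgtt
Mid1ip1, chrX:10717115-10717414, plus strand: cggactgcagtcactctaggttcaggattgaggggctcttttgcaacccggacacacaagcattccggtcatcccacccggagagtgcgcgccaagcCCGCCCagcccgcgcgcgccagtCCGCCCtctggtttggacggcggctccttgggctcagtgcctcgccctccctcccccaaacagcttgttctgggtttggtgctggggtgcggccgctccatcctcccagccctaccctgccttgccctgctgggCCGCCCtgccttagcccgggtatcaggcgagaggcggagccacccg

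The table of promoter windows matched 25 of 31 members, with 38 windows among them. CACGTG, the core to which ChREBP and SREBP-type factors can bind, was in 7 of the 38 member windows (18.4%) and in 7.15% of all 32851 windows. CCAAT, the box of NF-Y, was in 19 (50%) against 37.4%, and GGGCGG, the box of Sp-family factors, in 21 (55.3%) against 35.7%. TCACNCCAC was in 1 member window (2.63%) and in 1.24% of all windows, and that member window is the downstream start of Mlxipl, as TCACACCAC. Its upstream start, 17001 bases away, holds CACGTG instead. The 7 windows with CACGTG belong to 6 members, Scap, Mlxipl, Mlx, Pcx, Lpin2 and Lpin3, and 2 of them are overlapping windows of Scap. Of the fatty acid synthesis genes only Pcx is among these. A match is a string of letters and no evidence of binding. Srebf1 has 3 windows, of which the one furthest 5′ is printed.

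Libraries held 15979479 to 30176359 reads on genes. Setdb1 itself was at 156 and 191 normalised counts (the read count times 1 scaling factor per library, as the authors deposited it) in Setdb1 AKO BAT, against 455 and 473 in control BAT. It fell by 1.42 on the log2 scale (SE 0.19, limma, adjusted p = 0.0216), and lost the call without the first (adjusted p = 0.225) or the second control library (adjusted p = 0.230). It was at 632 normalised counts in 4-OHT cells and 1050.5 in ETOH cells, and at 371 and 399 in siSetdb1 cells against 784 in siNC cells (log2 fold change -1.02, limma, adjusted p = 0.0537). Counts cover the whole gene, so transcripts without the floxed part are still counted. All 9 adipocyte markers and all 10 brown adipocyte markers searched for, Adipoq and Ucp1 among them, had reads in every library. The same mRNA level can come from more adipocytes in the sample or from more RNA per adipocyte, and bulk libraries cannot tell these apart.

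In brown fat, the fatty acid synthesis genes were on average above control in Setdb1 AKO, with all 9 fitted changes positive, while the triglyceride assembly genes were split between both directions. No member passed the threshold: limma on log2(normalised count + 1), adjusted over all 14466 genes tested, called 0 of 31 members at a false discovery rate of 0.05, beside 1.68% of all genes called. The edgeR quasi-likelihood test on recovered reads also called 0 of 31 (1.73% of all genes). At an unadjusted limma p below 0.05, 8 members were higher and 1 was lower in Setdb1 AKO, where 8.64% and 9.08% of all genes were. DESeq2 on the same reads called 4 members higher (Scd2, Srebf1, Agpat2 and Thrsp) and 0 lower, beside 2.52% and 1.98% of all genes. The same 4 pass in the authors' deposited table, where 2.54% of all genes do. Its values come from the same libraries and are no separate evidence. The median log2 fold change was 0.19 over the members and 0.0058 over all genes tested, with 23 members above 0 (50.6% of all genes) and 8 below (49.4%). Both Setdb1 AKO libraries lay above both controls in 10 members (25.1% of all genes) and below both in 2 (24.9%). The Setdb1 AKO libraries each weigh on these values. Without the second, the members' median was 0.077. Without the first, it was 0.54, Scd2 was called higher (log2 1.64, adjusted p = 0.0152) and Dgat1 lower (log2 -1.26, adjusted p = 0.0421).

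**Figure D1:**
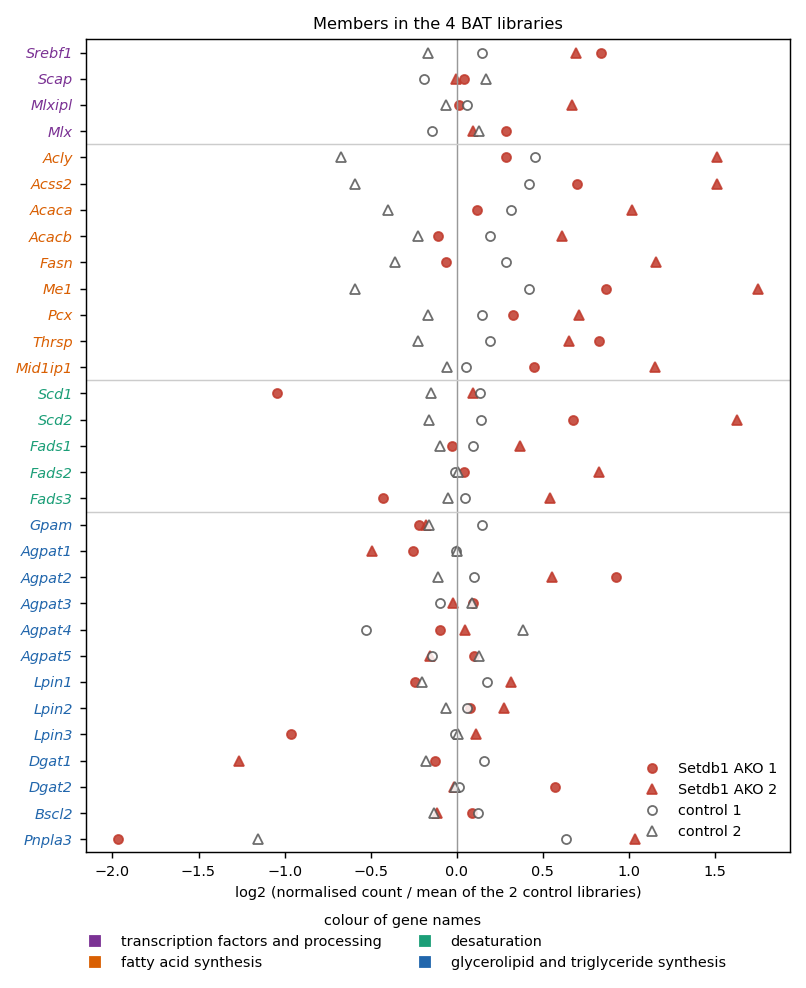
Log2 of each member's normalised count over the mean of the 2 control libraries (x axis), for the 2 Setdb1 AKO (filled) and 2 control (open) BAT libraries, 1 gene per row and coloured by role. Both filled symbols lie right of both open ones in 10 members, among them Srebf1, Me1, Scd2 and Agpat2, and the largest distance between libraries of 1 group is that of Pnpla3.

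Among the transcription factors, Srebf1 (chr11:60199089-60222581) stood apart between the groups. It was at 4954 and 4476 normalised counts in Setdb1 AKO BAT, against 3070.1 and 2469 in control BAT. That is a log2 fold change of 0.77 (SE 0.17, limma, unadjusted p = 0.00231, adjusted p = 0.0772), which misses the threshold, while DESeq2 gives an adjusted p of 0.00856. Mlxipl (chr5:135089890-135138382) was at 5538 and 8716 in Setdb1 AKO BAT, against 5702 and 5258 in control BAT. The groups overlapped, since the first Setdb1 AKO library lay between the controls (log2 0.34, SE 0.23, adjusted p = 0.489). Scap, the sterol-sensing escort of SREBP, had a log2 fold change of 0.032 and Mlx one of 0.19, both with overlapping groups.

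Of the enzymes that make the building blocks, Acly, which splits cytosolic citrate into acetyl-CoA, was at 24299.9 and 56793 normalised counts in Setdb1 AKO BAT, against 27306 and 12519 in control BAT. Its mean was higher in Setdb1 AKO (log2 1.01, SE 0.48, adjusted p = 0.335), but 1 control library exceeded 1 Setdb1 AKO library. Acss2, which makes acetyl-CoA from acetate, was at 8345 and 14688 in Setdb1 AKO BAT, against 6879 and 3419 in control BAT. Its groups did not overlap (log2 1.19, SE 0.37, unadjusted p = 0.0149, adjusted p = 0.168). Me1, malic enzyme and a source of NADPH, did not overlap between the groups, with 12993 and 23981 normalised counts in Setdb1 AKO BAT, against 9513 and 4721 in control BAT. The log2 fold change was 1.40 (SE 0.39, unadjusted p = 0.00847, adjusted p = 0.134, limma), and ran from 0.89 without the second control library to 1.90 without the first. Pcx, pyruvate carboxylase, was at 17561 and 22893 in Setdb1 AKO BAT, against 15497 and 12490.5 in control BAT (log2 0.53, SE 0.22, adjusted p = 0.275).

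Acaca, the cytosolic acetyl-CoA carboxylase that commits carbon to fatty acid, was at 16882 and 31478 normalised counts in Setdb1 AKO BAT, against 19319 and 11766 in control BAT. Fasn, the fatty acid synthase (chr11:120805846-120824547), was at 155411 and 362515 in Setdb1 AKO BAT, against 198204 and 126819 in control BAT. In both genes the first Setdb1 AKO library lay between the controls, and neither change passed (log2 0.61, SE 0.35, adjusted p = 0.420 for Acaca, and log2 0.58, SE 0.52, adjusted p = 0.608 for Fasn). Acacb, the carboxylase of the mitochondrial surface, had a log2 fold change of 0.27 with overlapping groups. Thrsp, the hormone-responsive Spot 14 protein, was at 52785 and 46944 in Setdb1 AKO BAT, against 34070.0 and 25542 in control BAT. The groups lay apart (log2 0.75, SE 0.25, unadjusted p = 0.0185, adjusted p = 0.182), and DESeq2 gives an adjusted p of 0.0152. Its relative Mid1ip1, which helps acetyl-CoA carboxylase polymerise, was at 360.2 and 586 in Setdb1 AKO BAT, against 273 and 254 in control BAT (log2 0.80, SE 0.25, adjusted p = 0.165).

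The stearoyl-CoA desaturases, which put the first double bond into saturated acyl chains, are encoded by several paralogs, and Scd1 and Scd2 had fitted changes of opposite sign in brown fat. The difference between them was not tested. Scd1 was at 204244 and 450374 normalised counts in Setdb1 AKO BAT, against 463699 and 379961 in control BAT. Its second Setdb1 AKO library lay between the controls and its first below both (log2 -0.47, SE 0.55, adjusted p = 0.712), and the value is 0.10 without that first library. Scd2 was at 4349.6 and 8415 in Setdb1 AKO BAT, against 3006 and 2435 in control BAT. Both Setdb1 AKO libraries exceeded both controls (log2 1.16, SE 0.30, unadjusted p = 0.00573, adjusted p = 0.113), with an adjusted p of 7.97e-04 by DESeq2. The paralogs share 8.14% of the 31-base words of Scd1 and 6.81% of those of Scd2, so some reads could be counted for either gene. Of the polyunsaturated fatty acid desaturases, Fads2 was at 136 and 234 in Setdb1 AKO BAT, against 131 and 133 in control BAT (log2 0.43, SE 0.29, adjusted p = 0.493), while Fads1 (log2 0.17) and Fads3 (log2 0.058) had overlapping groups.

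In glycerolipid synthesis no acyltransferase of the second step passed limma's threshold, and differences between its isoforms were not tested. Agpat2, the isoform whose loss causes lipodystrophy, was at 17764 and 13727 normalised counts in Setdb1 AKO BAT, against 10027 and 8647 in control BAT. Its groups did not overlap (log2 0.75, SE 0.20, unadjusted p = 0.00725, adjusted p = 0.124), and DESeq2 gives an adjusted p of 0.0121. Agpat1 was at 1864 and 1581 in Setdb1 AKO BAT, against 2216 and 2222 in control BAT, the one member lower at an unadjusted p below 0.05 (log2 -0.37, SE 0.15, unadjusted p = 0.0433, adjusted p = 0.264). The other isoforms, Agpat3, Agpat4 and Agpat5, had log2 fold changes of 0.040, 0.043 and -0.021 with overlapping groups, and that of Agpat4 was -0.014 with edgeR and -0.020 with DESeq2. Gpam, the mitochondrial glycerol-3-phosphate acyltransferase of the first step, was at 2310.1 and 2373 in Setdb1 AKO BAT, against 2971 and 2405 in control BAT (log2 -0.19, SE 0.16, adjusted p = 0.584).

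The lipins turn phosphatidate into diacylglycerol, and none of them stood out. Lpin1 was at 5711 and 8414 normalised counts in Setdb1 AKO BAT, against 7622 and 5882 in control BAT (log2 0.050, SE 0.23). Lpin2, whose groups did not overlap in normalised counts, and Lpin3 had log2 fold changes of 0.18 and -0.42. The final acylation is carried out by unrelated enzymes. Dgat1 was at 14794 and 6722 in Setdb1 AKO BAT, against 18081 and 14272 in control BAT (log2 -0.69, SE 0.36, adjusted p = 0.373). Dgat2 was at 36919 and 24597 in Setdb1 AKO BAT, against 25031 and 24629 in control BAT (log2 0.28, SE 0.25, adjusted p = 0.616). For each of them 1 Setdb1 AKO library was close to the controls and the other apart, the second library low in Dgat1 and the first high in Dgat2. Bscl2, or seipin, which shapes lipid droplets, had a log2 fold change of -0.0062, and 0.0043 with TMM scaling. Pnpla3, a lipid droplet acylhydrolase, was at 311 and 2492 in Setdb1 AKO BAT, against 1887 and 548 in control BAT, so its fitted change (log2 -0.21, SE 0.93) had no settled sign and was 0.20 with edgeR.

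Libraries of the same group differed from each other in many members. The second Setdb1 AKO library was at least 1.5 times the first in 14 of 31 members (45.2%), against 12.6% of all genes tested. The first control library was at least 1.5 times the second in 6 members (19.4%), against 10.9% of all genes. Both held in 6 members (Acly, Acss2, Acaca, Fasn, Me1 and Pnpla3), which is 19.4% against 2.68%. The labels give the replicate numbers no meaning, and other joint directions past 1.5 times were not counted. In the other direction, the first Setdb1 AKO library was at least 1.5 times the second in 2 members (6.45%, against 9.06% of all genes). The second control library was at least 1.5 times the first in 1 (3.23%, against 7.89%). These 2 counts are too small to set the members apart from all genes. Pnpla3 differed 8.02 times between the Setdb1 AKO libraries and 3.44 times between the controls, and Fasn 2.33 and 1.56 times. Dgat1 ran the other way between the Setdb1 AKO libraries, at 2.20 times as much in the first. All members together took 3.63% and 6.84% of reads on genes in Setdb1 AKO BAT, against 5.72% and 4.17% in control BAT. Brown adipocyte markers summed to 196316 and 125106 normalised counts in Setdb1 AKO BAT, against 188352 and 175017 in control BAT, and adipocyte markers to 358260 and 291290, against 280031 and 278057. Macrophage markers summed to 3932 and 4755, against 5143 and 3296, fibroblast and preadipocyte markers to 11061 and 15386, against 11868 and 10588, and erythroid markers to 13546 and 12932, against 8228 and 9525. By gene, 7 of 10 brown adipocyte markers had negative and 3 positive fitted changes (median log2 -0.31). Positive were 8 of 9 adipocyte markers (0.23), 9 of 10 fibroblast and preadipocyte (0.19), 7 of 10 macrophage (0.092) and 5 of 5 erythroid (0.58), beside 50.6% of all genes. Limma called 1 fibroblast and preadipocyte marker higher, where 1.00% of all genes were, and 0 others of these lists. No marker of these 5 lists was at 0 in any BAT library, and their part in the members' values was not tested.

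**Figure D2:**
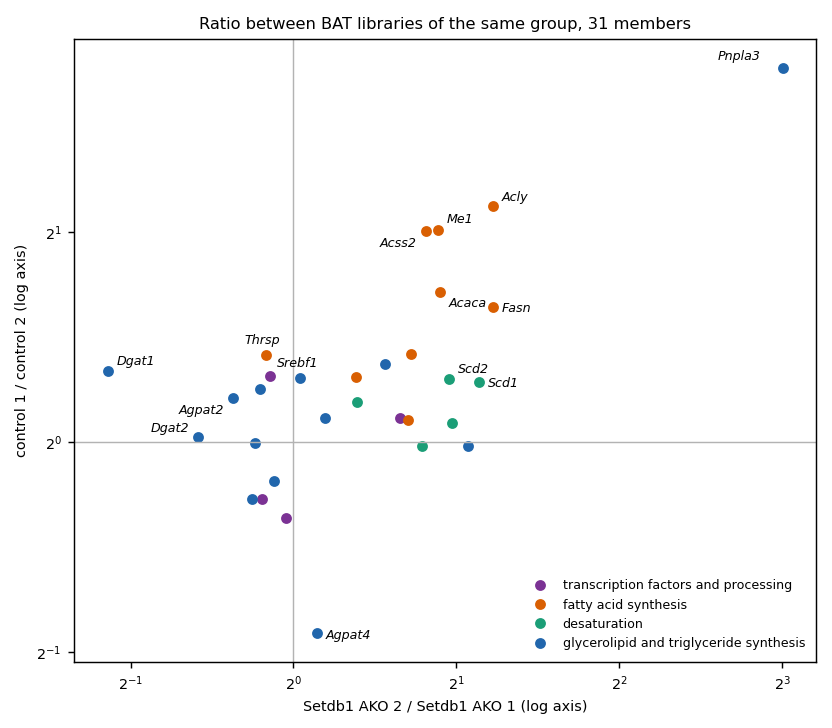
Ratio of the second to the first Setdb1 AKO library (x axis) and of the first to the second control library (y axis) in BAT, both on log axes, 1 point per member coloured by role. In the upper right lie Acly, Acss2, Acaca, Fasn and Me1, at 1.76 to 2.34 times on the x axis and 1.56 to 2.18 times on the y axis, with Pnpla3 beyond them, and Dgat1 is furthest left.

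After 4-OHT in cultured adipocytes, nearly all members were above ETOH, with 28 of 31 log2 ratios positive and a median of 0.38, beside 51.7% of genes above ETOH and a median of 0.011 over all 13969 genes measured. With 1 library per group there is no replicate check and no test, and the intervals given cover counting error only. Past 1.5-fold, a limit of size and not a test, 7 members were higher, where 4.21% of all genes were, and 0 were lower, where 6.12% were. They were Scd2, Acss2, Mlxipl, Acacb, Acaca, Fads3 and Mid1ip1, and 5 members were past it with scaling to total counts, which puts the median of all genes at -0.054 and that of the members at 0.31. Under that scaling 25 of 31 log2 ratios were positive, since Mlx (-0.017), Fads1 (-0.060) and Agpat5 (-0.0019) lay below 0. With the deposited scaling 27 were positive. The authors' deposited p-values for this pair also rest on 1 library per group. They cannot measure replicate spread and are not counted here.

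Scd2 had 71472 normalised counts in 4-OHT cells and 34745 in ETOH cells, the highest ratio of any member (log2 1.04, 95% counting interval 1.02 to 1.06). Acss2 had 6059 in 4-OHT cells and 3136 in ETOH cells (log2 0.95, interval 0.89 to 1.01). Mlxipl had 2349 in 4-OHT cells and 1421 in ETOH cells (log2 0.72, interval 0.63 to 0.82). The carboxylases went together, with Acaca at 48984 in 4-OHT cells and 30434 in ETOH cells (log2 0.69) and Acacb at 22475 and 13668 (log2 0.72). Fads3 had 8521 in 4-OHT cells and 5569 in ETOH cells (log2 0.61), and Mid1ip1 881 and 577 (log2 0.61, interval 0.46 to 0.76). Fasn had 229901 in 4-OHT cells and 158962 in ETOH cells (log2 0.53), Acly 27824 and 19596 (log2 0.51), Srebf1 14910.0 and 11099.7 (log2 0.43) and Scd1 932621 and 694415 (log2 0.43). In triglyceride synthesis, Dgat2 had 2708 in 4-OHT cells and 1827 in ETOH cells (log2 0.57), Lpin1 12716 and 8653 (log2 0.56), Agpat2 28347 and 21723 (log2 0.38), Gpam 5121 and 4216 (log2 0.28) and Dgat1 5597 and 4909 (log2 0.19). The fatty acid synthesis genes had the highest median of the 4 roles, 0.53, against 0.43 for desaturation, 0.28 for glycerolipid and triglyceride synthesis and 0.24 for the transcription factors. Below ETOH lay Agpat4 (log2 -0.44), Lpin2 (log2 -0.15) and Scap (log2 -0.0058). Me1, Pcx and Thrsp lay between at log2 0.33, 0.34 and 0.21, with Pnpla3 at 0.57, Agpat3 at 0.38 and Bscl2 at 0.36.

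Markers of differentiated adipocytes and of macrophages moved with this pair. Of 9 adipocyte markers 8 were higher in 4-OHT cells, with a median log2 ratio of 0.38, and the list summed to 333882 normalised counts in 4-OHT cells and 257299 in ETOH cells. All 10 macrophage markers were lower, with a median of -0.59, and the list summed to 61702 in 4-OHT cells and 105903 in ETOH cells. Brown adipocyte markers summed to 26387 and 20401, with 7 of 10 above ETOH and 3 below (median 0.23). Fibroblast and preadipocyte markers summed to 327017 and 357104. Of the 7 of them that passed the filter, 2 were above ETOH and 5 below (median -0.43). None of these markers was at 0 in either library. White adipocyte markers summed to 4346 in 4-OHT cells and 5280 in ETOH cells. Of the 7 of them that passed the filter, 2 were above ETOH and 5 below (median -0.27). The part of all these markers in the members' ratios was not tested.

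**Figure D3:**
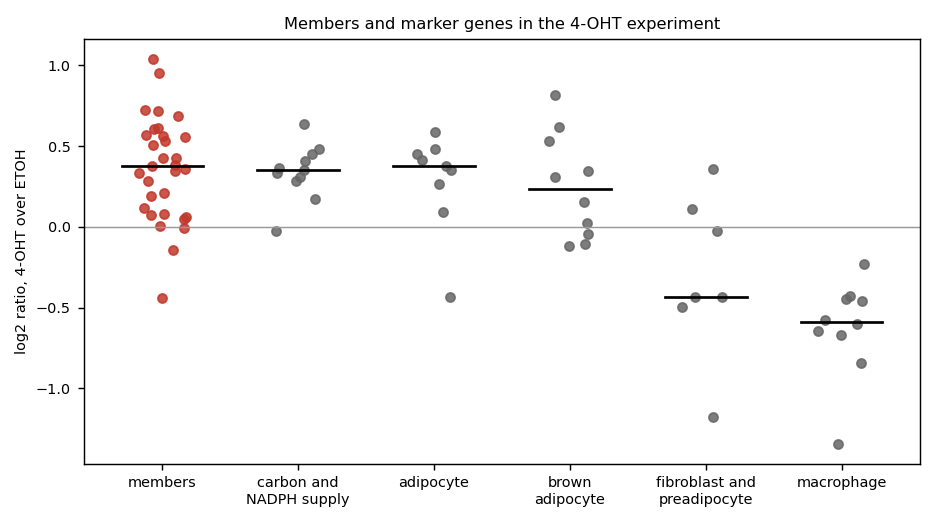
Log2 ratio of 4-OHT over ETOH cells (y axis) for each member, for the genes that supply carbon and NADPH and for markers of 4 cell types, with a black line at each list's median. The members and the adipocyte markers have the same median, 0.38, and all 10 macrophage markers lie below 0.

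With siRNA, the members were slightly below siNC, and no difference passed. Of 31 members, 25 had a negative log2 fold change, with a median of -0.14 beside -0.0034 over all 15224 genes tested, of which 50.7% were negative and 49.3% positive. Limma called 0 of 31 members (0.0394% of all genes), edgeR 0 (0.243%) and DESeq2 0 (0.0723%). At an unadjusted limma p below 0.05, 0 members were higher (3.02% of all genes) and 5 were lower (2.04%). Both siSetdb1 libraries lay below siNC in 18 members, where 33.8% of all genes did, and above it in 4, where 34.1% did. The single siNC library enters each of these comparisons. Its own spread is unknown and was taken to equal that of the siSetdb1 pair, which leaves 1 degree of freedom.

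Mlxipl was at 2619.6 and 2730.1 normalised counts in siSetdb1 cells, against 3212 in siNC cells (log2 -0.26, SE 0.11, unadjusted p = 0.0325, adjusted p = 0.940, limma). Fasn was at 105761 and 131226 in siSetdb1 cells, against 150852 in siNC cells (log2 -0.36, SE 0.16, adjusted p = 0.940). Fads2 was at 941 and 905 in siSetdb1 cells, against 1154 in siNC cells (log2 -0.32, SE 0.13, adjusted p = 0.939). The 2 others at an unadjusted p below 0.05 were Pcx, at 17656 and 18225 in siSetdb1 cells, against 21328 in siNC cells (log2 -0.25), and Agpat3, at 6663 and 7959, against 8807 (log2 -0.27). In each of these 5 both siSetdb1 libraries were below siNC. Srebf1 was at 22371 and 21792 in siSetdb1 cells, against 23802 in siNC cells (log2 -0.11, SE 0.11), Scd1 at 372337 and 392409, against 461083 (log2 -0.27), and Scd2 at 56067 and 62275, against 64822 (log2 -0.13). The siSetdb1 libraries differed from each other in Acly, at 20413 and 29418 against 29461 in siNC cells, and in Acaca, at 12145 and 16139 against 16022. For these genes the second siSetdb1 library was close to siNC and the first below it. Of the triglyceride genes, Agpat2 was at 20760.2 and 22187 in siSetdb1 cells, against 24524 in siNC cells (log2 -0.19), Dgat1 at 6271 and 6151, against 7175 (log2 -0.21), and Dgat2 at 5640.5 and 6946, against 6100.4 (log2 0.037). Adipocyte markers summed to 288463 and 289031 in siSetdb1 cells, against 291758 in siNC cells, with 4 positive and 5 negative fitted changes (median log2 -0.053). Brown adipocyte markers summed to 39940.5 and 42643, against 43615, with 2 positive and 8 negative (median -0.11). Fibroblast and preadipocyte markers summed to 55156 and 59645, against 61233.5, with 2 positive and 7 negative among the 9 that passed the filter (median -0.11). Of all genes, 50.7% were negative. Macrophage markers, few in these cells, summed to 477 and 461, against 915, with 1 or 2 of them at 0 in each library. The part of these markers in the members' values was not tested.

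Set side by side, 17 of 31 members were above their controls in Setdb1 AKO BAT and in 4-OHT cells and below in siSetdb1 cells, and 3 were above in all. Another 7 were above only in 4-OHT cells, and 0 were below in all. These are signs of fitted values, most of them past no test. The experiments share no control library, and differences between experiments were not tested.

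**Figure D4:**
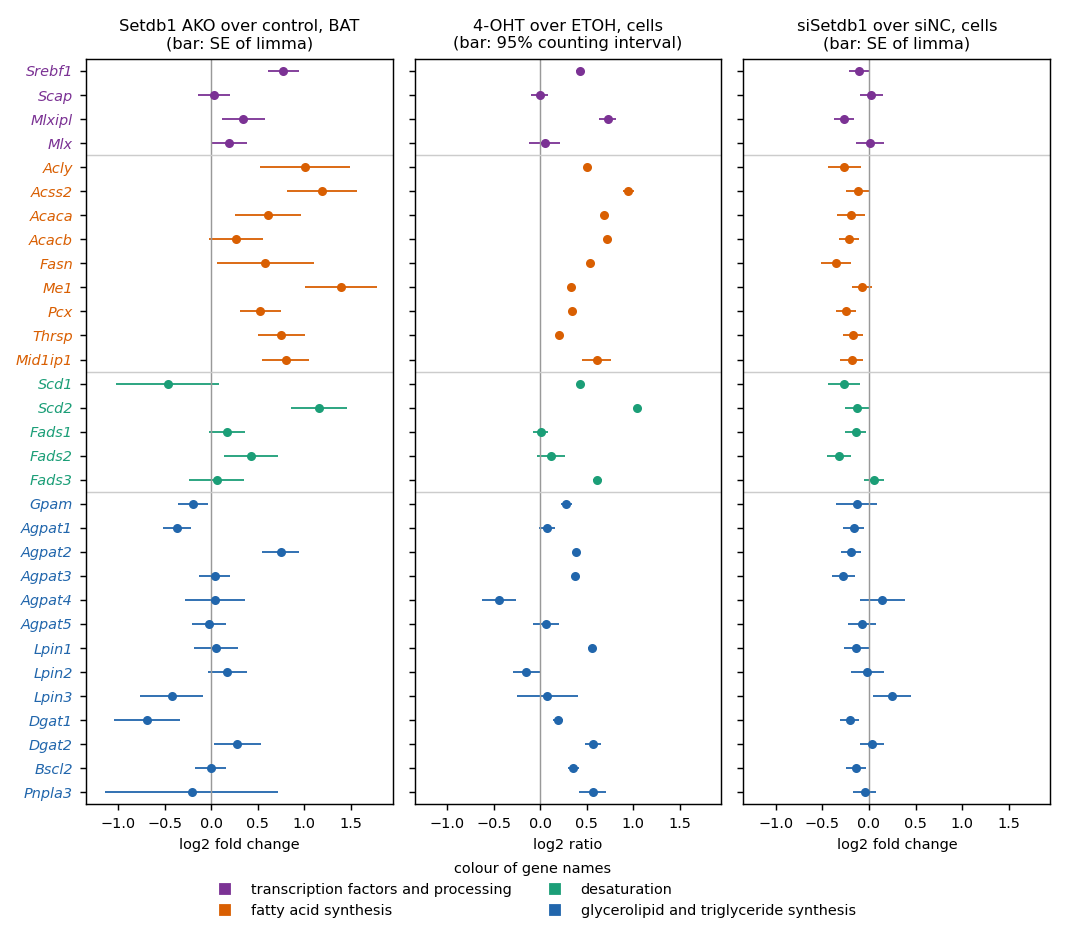
Log2 fold change of each member for Setdb1 AKO over control BAT (bars, SE), 4-OHT over ETOH cells (bars, 95% counting interval, no replicates) and siSetdb1 over siNC cells (bars, SE), coloured by role. Fatty acid synthesis genes lie right of 0 in the first and middle panels and left of 0 in the last, where fitted changes span -0.36 to 0.25.

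Per length, in RPKM (reads per kilobase of gene, scaled to each library's reads on genes), Scd1 had the highest level of the members in every library. It was at 2476 and 5622 in Setdb1 AKO BAT, against 6171 and 4846 in control BAT, at 6274 in 4-OHT cells and 4889.8 in ETOH cells, and at 4287 and 4529 in siSetdb1 cells, against 5232 in siNC cells. Fasn was at 832 and 1999 in Setdb1 AKO BAT, against 1165 and 715 in control BAT, and Thrsp at 1414 and 1294, against 1002 and 719.7. Some levels differed between tissue and cells, though their tables were scaled separately and no test was made across them. Scd2 was at 27.5 to 93.1 over the 4 BAT libraries and 217 to 652 over the 5 cell libraries. The reverse held for the final acyltransferases, with Dgat2 at 482 to 702 in BAT and 20.2 to 126 in cells, and Dgat1 at 133 to 381 in BAT and 54.7 to 129 in cells. Lpin2, at 0.793 to 0.977 in BAT and 1.26 to 2.45 in cells, was the lowest member in BAT and in the siRNA cells.

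**Figure D5:**
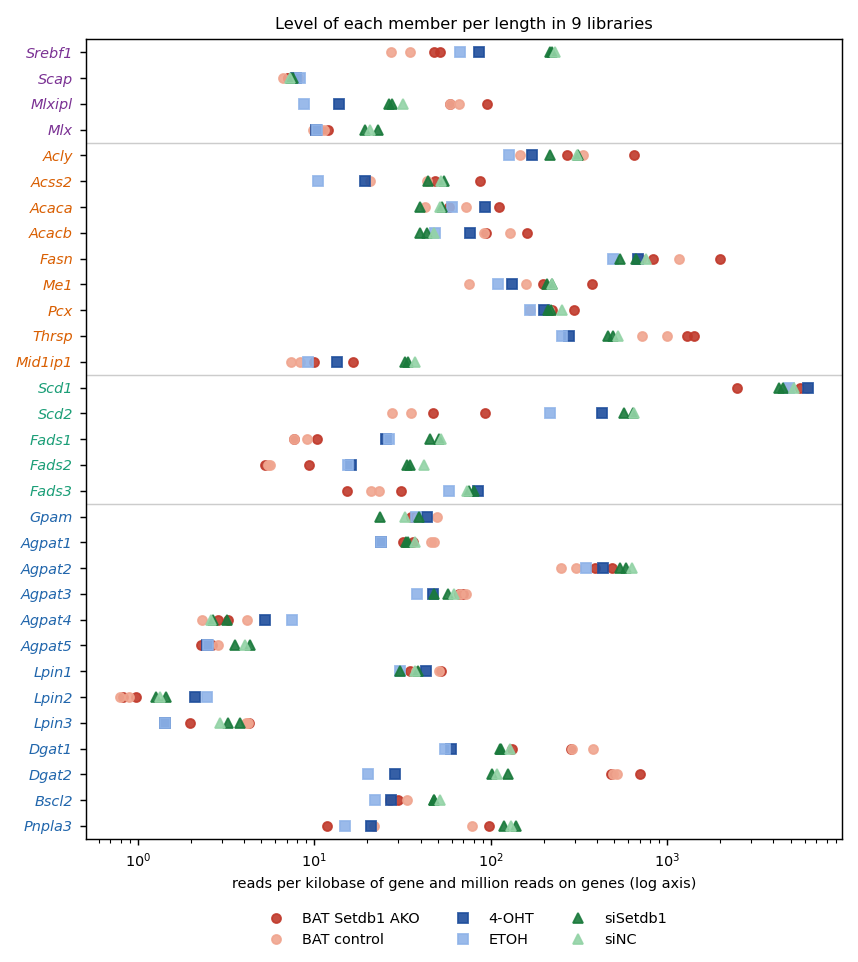
Level of each member (x axis, RPKM, log axis) in the 9 libraries, 1 gene per row with names coloured by role. Scd2 is higher in all 5 cell libraries than in all 4 BAT libraries, and Dgat1 and Dgat2 are lower in cells.

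Other genes of the pathway were taken from 4 lists. Carbon and NADPH supply held 11 genes, of which 10 had positive fitted changes in Setdb1 AKO BAT, with a median log2 of 0.42. Limma called 1 of them higher and 0 lower, where 1.00% of all genes were called higher and 0.677% lower. It was Idh1, the cytosolic NADP-dependent isocitrate dehydrogenase, at 3749.7 and 3807 normalised counts in Setdb1 AKO BAT, against 2119.8 and 1963 in control BAT (log2 0.89, SE 0.14, adjusted p = 0.0351). Elongation and acyl-CoA synthesis held 18 genes, of which 14 passed the filter on low values, and limma called 2 higher and 1 lower. Elovl3, an elongase of very long saturated chains, was at 5300.4 and 6004 in Setdb1 AKO BAT, against 259 and 327 in control BAT (log2 4.27, SE 0.17, adjusted p = 1.05e-04). Acsl5, an acyl-CoA synthetase, was at 6043 and 5632 in Setdb1 AKO BAT, against 3448 and 3073 in control BAT (log2 0.84, adjusted p = 0.0496, and 0.0585 with edgeR). Acsl3, its relative on lipid droplets and the endoplasmic reticulum, fell to 537 and 468 in Setdb1 AKO BAT, against 952 and 1149.5 in control BAT (log2 -1.06, adjusted p = 0.0353).

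Of 11 genes of SREBP and ChREBP control limma called 0 in BAT, and their median log2 was 0.061. Those with the smallest p were Mlxip, the ChREBP relative MondoA, at 734 and 866 in Setdb1 AKO BAT, against 1203 and 1139 in control BAT (log2 -0.55, SE 0.16, adjusted p = 0.136), and Usf1, an E-box-binding factor, at 207 and 224, against 308 and 353 (log2 -0.61, SE 0.19, adjusted p = 0.156). Insig1, which retains SREBP in the endoplasmic reticulum, came next, at 5046 and 5361 in Setdb1 AKO BAT, against 3896 and 3455 in control BAT (log2 0.50, SE 0.15, adjusted p = 0.156). In all 3 the groups did not overlap. Of the 11 genes of this list, both Setdb1 AKO libraries lay above both controls in 4 and below both in 4. Of all genes, 25.1% and 24.9% did. Of 13 other glycerolipid enzymes 12 passed the filter and 0 were called, with a median of 0.047. The nearest were Mogat1, a monoacylglycerol acyltransferase, at 108 and 169 in Setdb1 AKO BAT, against 47.7 and 46.7 in control BAT (log2 1.5, adjusted p = 0.0692), and Pck1, which makes the precursor of glycerol-3-phosphate, at 54890.1 and 37212, against 83977 and 92948 (log2 -0.97, adjusted p = 0.160). In siSetdb1 cells limma called 0 genes of these 4 lists, where it called 0.0394% of all genes. In the 4-OHT pair 10 of 11 carbon and NADPH genes were above ETOH, with a median log2 ratio of 0.35, and 7 of 11 genes of SREBP and ChREBP control were, with a median of 0.091. Of 16 elongation and acyl-CoA genes measured there 7 were above ETOH and 9 below (median -0.024), and of 11 other glycerolipid enzymes measured 8 were above and 3 below (median 0.17). Elovl3 was higher in cells too, at 369 RPKM in 4-OHT cells and 64.3 in ETOH cells, with no test. It was at 3.63 and 7.76 RPKM in siSetdb1 cells, against 1.30 in siNC cells, low levels at which limma did not call it.

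Some members share sequence with copies elsewhere, which the counting may have split. Of the 31-base words in Acaca exons 33.4% also occur in other genes, foremost the pseudogene Gm5182, which had 547 and 1717 reads in Setdb1 AKO BAT, against 1101 and 536 in control BAT. For Me1 the share is 30%, foremost with Gm7049, which had 140 and 337 reads in Setdb1 AKO BAT, against 59 and 28 in control BAT. Genes on the other strand overlap 25.5% of the exon bases of Mid1ip1, 19.3% of Mlx, 18.9% of Agpat5 and 13.2% of Scap, and the strand setting of the counting is not given in the sources used here.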

How the data were processed

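RNA-seq of 9 libraries was measured in 3 experiments. Per the submitters' processing notes, STAR 2.7.10a, featureCounts 2.0.3, Trimmomatic 0.39 and DESeq2 1.36.0 were used with GRCm38, in roles and an order not given. The BAT and siRNA tables hold, as signal, the read count per gene scaled by the authors with 1 factor per library, and the deposited 4-OHT table holds raw counts, scaled counts and FPKM. Deposited log2 fold changes and p-values of the authors were used only where named as theirs, the deposited FPKM was not used, and gene length came from the tables. Whole reads were recovered for all values (100% within 0.05 reads). The siRNA tables were joined through siNC, equal in all 19381 shared genes, with a link factor of 1.0024, and 1940 genes in 1 table only had at most 1 siNC read and count as 0 in the other. The 24 symbols that had turned into dates were restored from their identifiers.

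The test was limma 3.58.1 (lmFit, eBayes with trend; R 4.3.3) on log2(normalised count + 1), with Benjamini-Hochberg adjustment over all genes that reached 10 normalised counts in 2 or more BAT libraries, or in 1 or more siRNA libraries. Fold changes on that scale understate those of low genes. The 4-OHT pair was described by log2 ratios of TMM-scaled CPM (prior count 2), limited to genes that reached 50 counts in either library. Alternatives were edgeR 4.0.16, DESeq2 1.42.0, TMM scaling, pseudocounts of 0.5 and 10, filters of 50 or none, each BAT or siSetdb1 library left out and a replicate block. The model fits were tested on simulated data.

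The members and lists were chosen with earlier results of these data known. All members are named. Values per library are given for members at an unadjusted p below 0.05 with groups that do not overlap, for those past 1.5-fold in 4-OHT and for the main steps, and for pathway genes that were called or, in a list with none, had the 2 smallest p in BAT. A few others, such as Pnpla3 and Insig1, were chosen after their values were seen. White adipocyte, endothelial, skeletal muscle and lymphocyte markers were also looked up; in BAT their summed normalised counts were 1767 and 1636, 11320.1 and 10081, 765 and 622, and 60.7 and 27.9 in the Setdb1 AKO libraries, against 1527 and 1568, 10692 and 11869.6, 711 and 1281, and 73.4 and 63.9 in the controls.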

Additional observations from a re-analysis of the deposited data

Results flagged for a closer look

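For 8 members every Setdb1 AKO library lay above every control in BAT and both siSetdb1 libraries lay below siNC. Over the 13413 genes tested in both experiments 7.52% had this pattern, and 7.46% had its mirror image, which 0 members had. None of the 8 passed limma's threshold in either experiment, and the difference between experiments was not tested. Their log2 fold changes were 0.77 in BAT and -0.11 in siRNA for Srebf1, 1.40 and -0.080 for Me1, 0.53 and -0.25 for Pcx, and 0.75 and -0.17 for Thrsp. They were 0.80 and -0.19 for Mid1ip1, 1.16 and -0.13 for Scd2, 0.43 and -0.32 for Fads2, and 0.75 and -0.19 for Agpat2. For Fads2 the BAT groups overlapped when scaled to each library's reads on genes in place of normalised counts. Over all genes tested, 25.1% were higher in both Setdb1 AKO libraries in BAT, and 33.8% were lower in both siSetdb1 libraries than in the single siNC library.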

How the results depend on the processing

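The number of libraries limits these values, with 2 per group in BAT, 1 siNC library and 1 library per group in 4-OHT, and depth was not varied. DESeq2 called 4 members higher in BAT in place of 0, and leaving out 1 BAT library gave 0 to 1 higher and 0 to 1 lower. The members' median then ran from 0.077 to 0.54 in BAT and from -0.21 to -0.12 in siRNA, and in 4-OHT it was 0.31 with total counts, where Fads3 (0.55) and Mid1ip1 (0.54) lay under 1.5-fold, Mlx was at -0.017, Fads1 at -0.060 and Agpat5 at -0.0019. Fads1 was at -0.0068 with the deposited scaling. Setdb1 in BAT was at -1.42 without a filter (adjusted p = 0.206), where 11 genes were called higher and 0 lower of 22721, and between -1.56 and -1.28 with 1 library left out (adjusted p = 0.225 and 0.230 without 1 control). In siRNA it passed with edgeR (-1.03), DESeq2 (-1.02), TMM scaling (-1.02) and a filter of 50 (-1.02). Same-numbered BAT libraries did not deviate together from their group means (Pearson r = -0.0151 across 14466 genes, and -0.627 across the 31 members, as a description, since genes are not independent). With 2 libraries per group this cannot decide whether libraries of the 2 groups were paired or shared a batch, which the labels do not give. With the replicate block 0 members were called, and 181 genes were higher and 118 lower, against 145 and 98 without it. Genes called higher and lower were 98 and 59 without the first Setdb1 AKO library, 52 and 40 without the second, 22 and 2 without the first control and 22 and 0 without the second. In siRNA edgeR called 29 genes higher and 8 lower, DESeq2 8 and 3, and limma 5 and 1. Signs turned in BAT for Agpat4 (edgeR -0.014, DESeq2 -0.020), Pnpla3 (0.20 with both) and Bscl2 (0.0043 with TMM scaling). With 1 BAT library left out they turned for Scap (-0.15 to 0.21), Acacb (-0.094 to 0.63), Fasn (-0.029 to 1.19), Scd1 (-1.04 to 0.10), Fads1 (-0.022 to 0.37), Fads3 (-0.43 to 0.54), Agpat3 (-0.053 to 0.13), Agpat4 (-0.41 to 0.49), Agpat5 (-0.16 to 0.11), Lpin1 (-0.23 to 0.33), Lpin3 (-0.96 to 0.11), Dgat2 (-0.014 to 0.57), Bscl2 (-0.13 to 0.12) and Pnpla3 (-1.71 to 1.29). With 1 siSetdb1 library left out, which leaves values with no test, they turned for Mlx (-0.11 to 0.14), Acss2 (-0.27 to 0.024), Acaca (-0.40 to 0.011), Gpam (-0.50 to 0.23), Agpat5 (-0.21 to 0.067), Lpin1 (-0.31 to 0.034), Lpin2 (-0.11 to 0.073), Dgat2 (-0.11 to 0.19) and Pnpla3 (-0.16 to 0.064). The cause of these turns was not tested. Of the other single-member values that had a test, 341 in BAT and 217 in siRNA kept their direction and their side of the threshold.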
